A study of Homo sapiens with 6 samples.

Results

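The peaks described are m6A peaks that the authors' annotation placed in a 5' UTR and that lie within 1 exon block, without crossing a splice junction. They were chosen as the rows with the annotation 5' UTR and exactly 1 block size, and this rule uses no level of the mark. It took 4360 of 42618 peaks listed after immunoprecipitation (IP) over input, in 3547 genes. Among peaks whose enrichment the authors compared between treatments it took 1890 of 19979, in 1676 genes. Of the 3547 genes, 2913 had exactly 1 such peak, 501 had 2, and 133 had 3 or more, with at most 7 in a gene.

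N6-methyladenosine (m6A) is a methyl mark on mRNA that is written by a nuclear methyltransferase complex and lies mostly near stop codons and in 3' UTRs. A smaller set of marks lies in 5' UTRs, the leader that the scanning ribosome reads before it reaches the start codon. A related mark, m6Am, is made by the enzyme PCIF1 on an adenosine next to the cap, and antibodies against m6A also bind it, so a peak at a transcript start can come from either mark. In mouse cells, m6A in the leaders of stress-induced mRNAs has been tied to cap-independent translation and to the choice between upstream and main reading frames.

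The cells were Kasumi-1, an established acute myeloid leukaemia line with the RUNX1-RUNX1T1 fusion, labelled wild type in genotype, and all groups are of this 1 line. They received 100 uM CoCl2, a hypoxia mimic that stabilises HIF-1, and 10 nM echinomycin, a drug that keeps HIF-1 off DNA, for 24 hours. The 6 libraries were 3 IP and 3 input libraries of this combined treatment, and the authors' second list sets it against CoCl2, whose libraries were not analysed here. Both lists give 1 value per peak with no replicate values, and the sources used here do not say whether the authors' false discovery rate (FDR) reflects how far replicates differ. Of 10 markers of the line, 9 were at 1 FPKM or more in input (fragments per kilobase, scaled to library size), with MPO, the granule peroxidase, at 56.2 ± 2.74 FPKM and KIT, a progenitor receptor, at 40.4 ± 1.87 FPKM (SD, n = 3), while ELANE, a neutrophil protease, had a mean of 0.0185 FPKM. Among 9 measured markers of other cell types, 6 averaged under 1 FPKM, and CD3D, a T cell receptor component, was at 32.1 ± 2.30 FPKM, EPCAM at 8.79 ± 0.149 FPKM and CD79A at 5.03 ± 0.597 FPKM (SD, n = 3).

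The annotated starts of the genes with the most enriched 5' UTR peaks of 1 block are shown first, since the base at the start decides whether m6Am can form there. Each line holds 10 bases before the RefSeq start and 20 bases from it (GRCh38.p14, 5′ to 3′), and the capital letter is the start base. The sequence is that of the RefSeq start and was not read from the peak, because the peaks' genome build is not named. Of these 8 genes, 3 have A at the start and 5 have G, and by their coordinates the starts of PPM1B and FANCL lie outside the peak.
PURB, chr7:44885511-44885540, minus strand: ggaagtggctAgggctgcacggaagtcgcg
NUS1, chr6:117675459-117675488, plus strand: aactgtccatGtactactgggggcggggct
C19orf25, chr19:1479196-1479225, minus strand: tgctccgaccGgaatcggaagtggctgcgt
PPM1B, chr2:44168865-44168894, plus strand: ggagggggttGcaaaaggagccgagcggct
HEXIM1, chr17:45148465-45148494, plus strand: actgggagacAgcagttggaagttggcagg
DCTPP1, chr16:30429781-30429810, minus strand: ccacgtggtcGggaagcgggctggcagcgg
ACSS1, chr20:25058120-25058149, minus strand: tgaggcacccActctgggagcacagagagc
FANCL, chr2:58241306-58241335, minus strand: gtgtttctccGgacttcgagccatggcggt

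For contrast, mRNAs of the translation machinery with a 5' terminal oligopyrimidine (TOP) tract are known to begin with C followed by pyrimidines. These are the RefSeq starts of the 3 genes of the TOP list that had a 5' UTR peak of 1 block and a RefSeq entry, and all 3 begin with C. By their coordinates all 3 starts lie outside the listed peaks, that of RPL28 nearby and those of RACK1 and EEF1A1 well away (chromosome 5, 181247156 to 181247544, and chromosome 6, 73523707 to 73523797), so the C is not a base of the peak.
RPL28, chr19:55385922-55385951, plus strand: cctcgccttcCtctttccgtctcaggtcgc
RACK1, chr5:181243887-181243916, minus strand: gcttttctctCtctctttcactgcaaggcg
EEF1A1, chr6:73521013-73521042, minus strand: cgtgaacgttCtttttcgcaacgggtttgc

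Most 5' UTR peaks of 1 block covered the start of the transcript in their row. That transcript can differ between peaks of 1 gene, as in BRD2. Some covering peaks lay mostly upstream, such as that of EGLN1, from -1095 to 190 bases relative to the start. Of 4360 listed peaks, 2984 (68.4%) covered the start of the transcript named in their row, with 1644 beginning upstream of it and 1340 beginning exactly at it. Another 680 began 1 to 1000 bases downstream and 696 more than 1000 bases downstream. Peaks that covered the start had a median fold enrichment of 4.19 (IP over input, the authors' value per peak), against 3.06 for those that did not, and they were also longer, with medians of 269 and 181 bases. Among peaks of 300 bases or less the medians were 3.10 and 2.46, and among longer peaks 6.05 and 5.59. A share of 39.2% of the peaks overlapped the span of another gene, 30.5% on the opposite strand, and the sources used here do not say whether counting used strand, so reads of such neighbours may not be told apart.

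**Figure D1:**
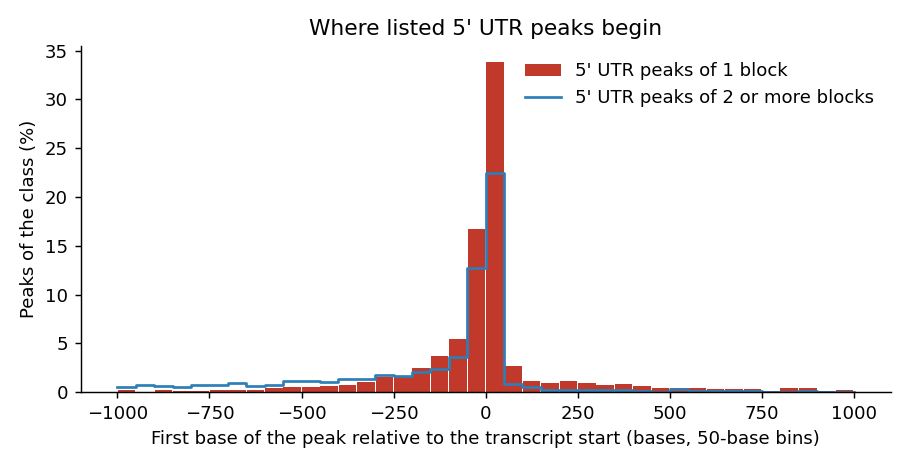
Position of the first base of listed 5' UTR peaks relative to the transcript start in their row, in 50-base bins from -1000 to 1000 bases, as a percentage of all peaks of the class; red bars are peaks of 1 block and the blue line peaks of 2 or more blocks. The bin that starts at the transcript start holds 33.8% of the peaks of 1 block and 22.5% of those with 2 or more, and 83.5% and 62.6% lie within the plotted range.

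These peaks were short and less enriched than their spliced counterparts. Median exonic length was 240 bases (quartiles 150 and 420), against 390 bases for 5' UTR peaks of 2 or more blocks, 301 for 3' UTR peaks of 1 block and 330 over the whole list. Median fold enrichment was 3.81 (quartiles 2.38 and 6.99), against 4.84, 3.99 and 4.53 in the same classes. Fold enrichment went with length: the median was 2.48 in peaks of 150 bases or less, 3.26 from 151 to 300, 4.86 from 301 to 600, 6.93 from 601 to 1200 and 8.93 above that. In 5' UTR peaks of 2 or more blocks the same length classes had medians of 2.38, 3.31, 4.84, 6.47 and 7.64, so that the classes were close at equal length up to 600 bases. Peaks with exactly 2 blocks, just outside the rule, had a median length of 325 bases and a median fold enrichment of 4.62. Of the 4360 peaks, 601 (13.8%) did not pass an authors' FDR of 0.05. Over the whole list 87.4% of peaks were under that limit.

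The strongest peaks lay on genes of mixed function. Among genes with at least 5 FPKM in input, the 10 highest values belonged to PURB, NUS1, SIX5, C19orf25, UBQLN4, PPM1B, HEXIM1, DCTPP1, ACSS1 and FANCL. SIX5, a homeobox transcription factor, had a fold enrichment of 96.6 over 917 bases (chromosome 19, 45768535 to 45769451), and its input levels were 5.89, 6.83 and 5.05 FPKM. UBQLN4, a ubiquilin that escorts proteins to the proteasome, had 62.4 over only 150 bases at the transcript start (chromosome 1, 156053649 to 156053798), with 10.6, 12.3 and 11.4 FPKM. PPM1B, a serine/threonine phosphatase, had 61.5 over 1206 bases (chromosome 2, 44167625 to 44168830), with 6.63, 7.34 and 7.12 FPKM. The 3 libraries gave close input levels for each of these genes.

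HEXIM1, the inhibitor of the elongation kinase P-TEFb, stood apart in level, at 137, 153 and 144 FPKM with a fold enrichment of 59.1 over 2127 bases from the transcript start (chromosome 17, 45148475 to 45150601). PURB had the highest value, 119 over 2818 bases from the transcript start, and an overlapping peak of 103 over 1147 bases (chromosome 7, 44884953 to 44886099). NUS1 had 113 over 361 bases. C19orf25 had 79.2 over 448 bases (chromosome 19, 1478772 to 1479219) at 7.21 ± 0.352 FPKM (SD, n = 3). DCTPP1, a dCTP pyrophosphatase, had 36.3, and ACSS1, a mitochondrial acetyl-CoA synthetase, and FANCL, a ubiquitin ligase of the Fanconi anaemia pathway, each had 35.4. The peaks of SIX5, PPM1B, HEXIM1, DCTPP1, FANCL and PURB overlapped a neighbouring gene in the FPKM table, and those of NUS1, C19orf25, UBQLN4 and ACSS1 did not.

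**Figure D2:**
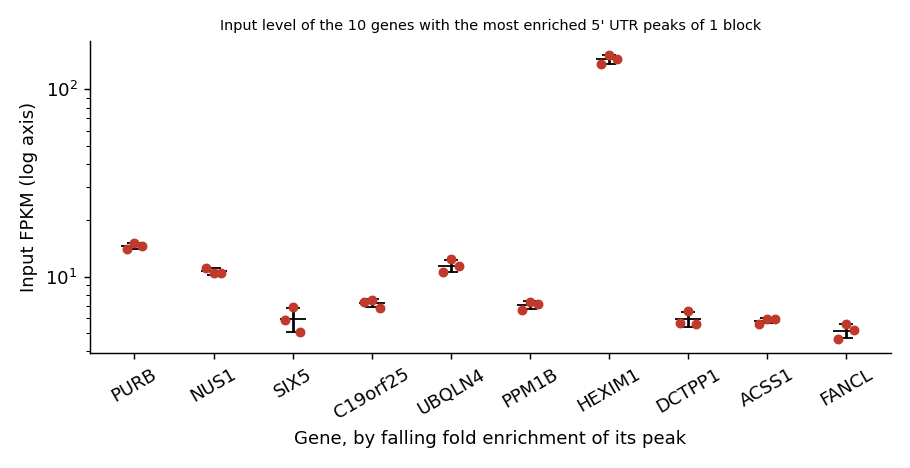
Input FPKM (log axis) of the 10 genes with the most enriched 5' UTR peaks of 1 block among genes of at least 5 FPKM, ordered by falling fold enrichment; red points are the 3 input libraries and black marks the mean and SD. HEXIM1 lies between 137 and 153 FPKM, and the other 9 genes between 4.66 and 15.2 FPKM.

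Expressed genes carried such a peak in a minority of cases, and more often at higher expression. Among the 12612 genes that averaged at least 1 FPKM in input, 2836 (22.5%, exact Clopper-Pearson 95% interval 21.8 to 23.2, counting error only) had at least 1. The share was 14.1% (12.2 to 16.1) in the lowest decile of expression and 26.9% (24.4 to 29.4) in the highest. Genes with such a peak had a median input level of 4.67 FPKM (quartiles 1.48 and 11.8), with medians of 4.64, 4.75 and 4.62 in the 3 libraries, and genes with a 5' UTR peak of 2 or more blocks had 5.38 FPKM. In these bulk libraries fewer cells with a transcript and less RNA per cell cannot be told apart. A 3' UTR peak was also listed for 2400 of the 3547 genes (67.7%), and 605 (17.1%) had no listed peak of any other kind.

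**Figure D3:**
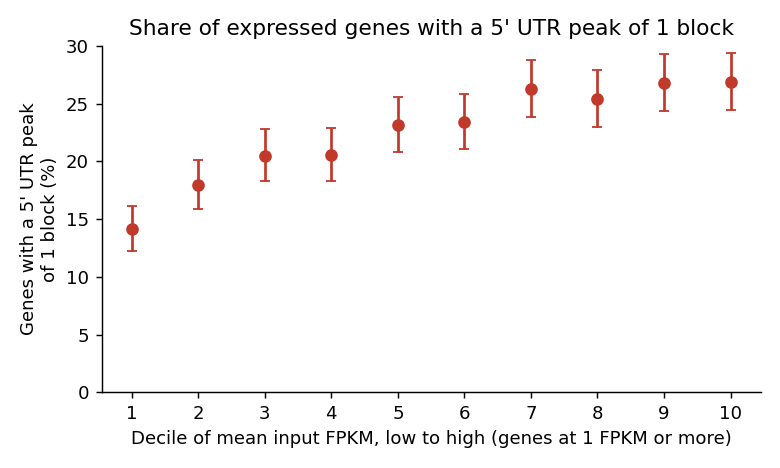
Share of expressed genes with at least 1 listed 5' UTR peak of 1 block, by decile of mean input FPKM from low to high; points are percentages of about 1261 genes a decile and bars exact 95% intervals. The share is 14.1% in decile 1 and between 25.4% and 26.9% in deciles 7 to 10.

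The share ran from 11.4% to 72.2% between gene groups. Only immediate early genes and haematopoietic transcription factors had intervals that left out the 22.5% of all expressed genes. Immediate early genes, the first-wave transcription factors and feedback regulators of a stimulus, had such a peak in 13 of 18 expressed genes (72.2%, 46.5 to 90.3), and haematopoietic transcription factors in 9 of 16 (56.2%, 29.9 to 80.2). TNF and NF-kB signalling had 8 of 18 (44.4%, 21.5 to 69.2), p53 target genes 8 of 19 (42.1%, 20.3 to 66.5), chromatin regulators 9 of 22 (40.9%, 20.7 to 63.6) and genes with upstream reading frames or stress roles 8 of 20 (40.0%, 19.1 to 63.9). Cell cycle genes had 9 of 24 (37.5%, 18.8 to 59.4), HIF pathway and target genes 10 of 28 (35.7%, 18.6 to 55.9) and the m6A machinery 6 of 19 (31.6%, 12.6 to 56.6). For zinc finger genes named ZNF the share was 83 of 346 (24.0%, 19.6 to 28.8), close to the 22.5% of all expressed genes. TOP genes were lowest, at 4 of 35 (11.4%, 3.20 to 26.7), although 24 of the 35 had some listed peak.

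Within these groups, some high values belonged to long peaks. IER5, an immediate early gene, had 27.9 over 2027 bases (chromosome 1, 181088700 to 181090726), at 39.2, 38.8 and 40.8 FPKM. This length was 48.3% of its transcript's genomic span, introns included. CEBPB and CEBPA, leucine zipper factors of myeloid differentiation, had 13.4 over 1839 bases and 12.4 over 1525 bases. JUND, an AP-1 subunit, had 7.07 over 1899 bases. In the comparison list its peak had 98.4% of the length of its transcript's span, and that of CEBPB 100%. A label of 5' UTR on such a peak does not place the mark within the leader.

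Other genes of the groups had high values on shorter stretches. BTG1, an antiproliferative gene, had 10.2 over 721 bases, ARID1A, a SWI/SNF subunit, 14.9 over 1254 bases and CDKN1A, the cyclin-dependent kinase inhibitor p21, 12.1 over 417 bases. MKI67, the proliferation marker, had 9.10 over 241 bases, and SESN1, a p53-induced sestrin, 10.7 over 151 bases beside its other listed peaks of 3.84 and 2.73. MEIS1, a homeobox factor of leukaemic cells, had 11.2 over 300 bases at only 0.215 ± 0.0349 FPKM (SD, n = 3), and ZNF493 21.4 at 0.0871 ± 0.0564 FPKM (SD, n = 3), levels at which little input RNA stands behind the ratio.

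In the m6A machinery, RBM15, the adaptor that guides the writer complex, had 9.89 over 3952 bases at 15.9, 16.0 and 16.4 FPKM. PCIF1, the m6Am writer, had 7.86 over 870 bases across its start (chromosome 20, 45934186 to 45935055) and 2.37 over 61 bases, at 17.1, 18.4 and 15.2 FPKM. Lower values stood at IGF2BP2, a reader, with 4.26 and RBM15B, the paralogue of RBM15, with 4.11. ZC3H13, a subunit of the writer complex, had 2.05 and YTHDF3, a cytoplasmic reader, 1.88. The transcript of HIF1A, whose protein oxygen destabilises, had 2.09 over 211 bases from its start at 25.4 ± 0.832 FPKM (SD, n = 3), where HIF1A-AS1 overlaps. EGLN1, the prolyl hydroxylase that marks HIF for destruction, had 5.55 over 1286 bases, and TNF, the cytokine, 3.10 over 241 bases.

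The genes of the TOP list with such a peak were HNRNPA1, an RNA-binding protein, at 9.31, RPL28, a large ribosomal subunit protein, at 4.32, RACK1, a ribosomal scaffold, at 3.85 and EEF1A1, the elongation factor, at 1.86. HNRNPA1 had 90.6, 87.9 and 93.2 FPKM, and its peak had a log10 FDR of -1.47. EEF1A1 had 3417, 3226 and 3500 FPKM and a 91-base peak at the start of the transcript in its row. The other 3 peaks did not reach that start and began 60, 239 and 32 bases downstream of it in HNRNPA1, RPL28 and RACK1. These genes have processed pseudogenes with similar sequence, so their values are uncertain. The list is not complete for ribosomal proteins: RPL36, which is not in it, had a listed peak of 1.99 over 509 bases across its start.

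The annotated start base differed between genes with such a peak and expressed genes without any peak. Of 3546 gene symbols with a 5' UTR peak of 1 block, 2843 (80.2%) matched the RefSeq promoter table, and 48.2% of these began with A (46.3 to 50.0), 39.3% with G, 11.4% with C (10.3 to 12.7) and 1.13% with T. A began 44.3% of all 27305 genes in the table. Where a peak covered the start of the transcript in its row, 49.7% of 2098 matched genes had A at their RefSeq start (47.6 to 51.9), which can be another position. Among expressed genes, A began 46.6% (44.6 to 48.7) of 2339 with such a peak, against 44.8% (43.8 to 45.9) of all 8703 expressed genes that matched, with overlapping intervals, and 50.5% (48.4 to 52.6) of 2258 with only spliced 5' UTR peaks. It began 41.5% (39.7 to 43.3) of 3085 with peaks outside the 5' UTR only and 38.2% (35.2 to 41.2) of 1056 without a listed peak. Only 43.1% of expressed genes without a listed peak matched the table, against 82.5% of expressed genes with a 5' UTR peak of 1 block, so the groups are not equally covered.

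At each level of expression, A was more common in genes with such a peak than in genes without a listed peak, with the widest gap at the top. From 1 to 5 FPKM, 48.4% of genes with such a peak began with A (45.2 to 51.7), against 40.6% of genes without a listed peak (36.0 to 45.3). From 5 to 20 FPKM the shares were 45.9% (42.8 to 49.0) and 39.9% (35.1 to 44.9). The intervals overlapped narrowly in both of these classes. At 20 FPKM or more they were 44.3% (39.4 to 49.2) and 29.3% (23.2 to 36.0), and C began 14.9% (11.6 to 18.7) and 36.1% (29.5 to 43.0). Of the 35 TOP genes, 26 matched and 19 of these began with C at the RefSeq start, the other 7 with A and none with G or T.

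Fold enrichment differed little by RefSeq start base. Covering was counted from the start of the transcript in the row, which can differ from the RefSeq start. The base given is therefore not always under the peak, as with PPM1B and FANCL. Peaks that covered the start had a median fold enrichment of 4.19 in genes starting with A (1176 peaks), 4.26 with G (900), 3.73 with C (279) and 3.57 with T (29). The median log2 fold change of compared peaks that covered the start was 0.25 with A, 0.46 with C and -0.23 with G in the authors' deposited table (combined treatment over CoCl2), and 51.0%, 42.0% and 51.1% of the called ones were lower, with overlapping intervals. Where peaks did not cover the start, 68.6% of 105 called peaks with G were lower in the authors' deposited table (58.8 to 77.3). Those with A were lower in 49.4% of 87 cases (38.5 to 60.4), and the intervals overlapped narrowly. Compared peaks with G that did not cover the start were also longer, with a median of 241 bases against 210 with A. The letters GGAC, the core in which the writer complex methylates most often, were in the first 50 bases of 19.7% of matched genes (18.2 to 21.2; transcribed strand only), against 18.8% of all 27305 genes in the table. The longer GGACT, which contains GGAC, was in 4.85%, against 4.87% of all genes. These counts concern annotated starts, which need not be the ones used in these cells.

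With echinomycin added to CoCl2, 5' UTR peaks of 1 block changed in both directions, with a smaller share of lower values than the other classes. Of 1890 such peaks in the authors' deposited table, 1139 (60.3%, 58.0 to 62.5) passed an authors' FDR of 0.05 and are called here, against 68.9% of all peaks of that table. Lower enrichment was called for 615 and higher for 524, or 32.5% and 27.7% of those compared, against 45.8% lower and 23.1% higher over the whole table. Lower values made up 54.0% of called peaks in the authors' deposited table (51.0 to 56.9), against 63.7% (61.7 to 65.6) of 5' UTR peaks with 2 or more blocks, 69.2% (67.8 to 70.6) of 3' UTR peaks with 1 block and 67.6% (66.7 to 68.4) of all peaks outside the class. Peaks of exactly 2 blocks in the 5' UTR had 60.3% lower (57.5 to 63.0). The intervals of the 5' UTR peaks of 1 block overlap none of these, and they cover counting error only, since peaks are not replicates.

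At a fold limit the calls were nearly even. A called change of at least 2-fold stood in the authors' deposited table for 381 of the 1890 peaks (20.2%), against 17.2% of all peaks. Of the 381, 184 were lower and 197 higher, so that 48.3% were lower, against 65.1% over the whole table at the same limit. Called peaks that were higher in the authors' deposited table had a median log2 fold change of 0.84 (quartiles 0.57 and 1.21), and those that were lower one of -0.77 (quartiles -1.11 and -0.54). Over all 1890 it was -0.24, with an interval of -0.32 to 0.24 that crosses 0, and it was 0.21 in genes of 1 FPKM or more and 0.35 among peaks of 1200 bases or less. For all tested peaks the median log2 fold change was -0.43.

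Length separated peaks that rose from peaks that fell. By the authors' deposited table, 21.4% of called 5' UTR peaks of 1 block were lower at 150 bases or less (13.9 to 30.5, 103 called) and 23.1% from 151 to 300 bases (18.5 to 28.2, 307 called). The share was 50.2% from 301 to 600 bases (44.2 to 56.2, 283 called), 75.7% from 601 to 1200 (69.5 to 81.1, 226 called) and 95.0% above 1200 (91.2 to 97.5, 220 called). The share of peaks called also went with length, at 32.1% in the shortest class and 97.3% in the longest. Short peaks were more common in this class, with 51.4% of its compared peaks at 300 bases or less, against 35.0% of the whole table.

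Spliced 5' UTR peaks followed nearly the same course in the authors' deposited table, with 17.2%, 21.8%, 46.0%, 81.1% and 95.1% lower over the same length classes, and every interval overlapped that of the peaks of 1 block. For 3' UTR peaks of 1 block the shares in the authors' deposited table were 28.7%, 44.9%, 65.3%, 87.9% and 96.0%. Between 151 and 1200 bases the 3' UTR intervals lay above those of the 5' UTR peaks of 1 block, at 41.5 to 48.4, 62.6 to 68.0 and 85.8 to 89.8, while in the shortest and longest classes they overlapped. Weighted to the length mix of all called peaks, the share lower among 5' UTR peaks of 1 block came to 59.9%, an alternative added after the data were seen.

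**Figure D4:**
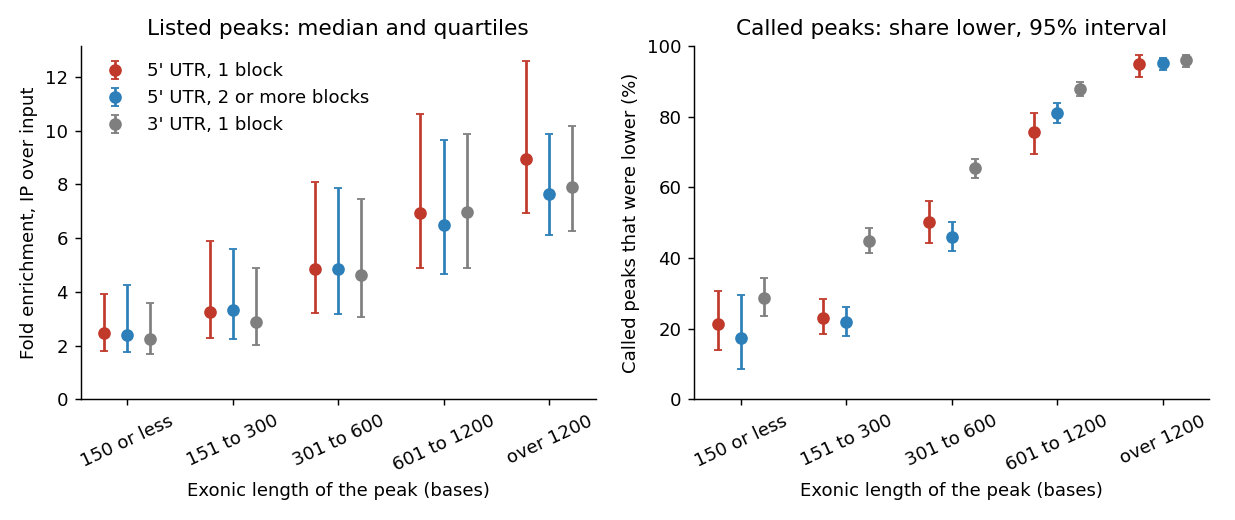
Left, median fold enrichment (IP over input) with quartiles of listed peaks by exonic length in bases; right, share of called peaks that were lower after the combined treatment than after CoCl2, with exact 95% intervals. Red points are 5' UTR peaks of 1 block, blue 5' UTR peaks of 2 or more blocks and grey 3' UTR peaks of 1 block; both measures are higher in longer peaks in all 3 classes, with 21.4% of the shortest and 95.0% of the longest 5' UTR peaks of 1 block lower.

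Expression of the gene went the other way. In genes under 1 FPKM, 75 of 93 called peaks fell in the authors' deposited table (80.6%, 71.1 to 88.1), from 1 to 5 FPKM 65.8% (60.0 to 71.2), from 5 to 20 FPKM 50.0% (45.6 to 54.4), from 20 to 100 FPKM 38.6% (32.1 to 45.5) and at 100 FPKM or more 4 of 21 (19.0%, 5.45 to 41.9). Among peaks over 300 bases the shares in the authors' deposited table were 85.3%, 80.8%, 66.8%, 61.0% and 3 of 10. Among peaks of 300 bases or less they were 11 of 18, 25.3%, 20.4%, 19.1% and 1 of 11. By position, 52.5% of called peaks that covered the transcript start in the authors' deposited table were lower (49.1 to 55.9) and 58.8% of those that did not (52.6 to 64.8), with 22.8% and 22.3% among peaks of 300 bases or less. Called peaks that overlapped another gene were lower in 59.4% of 493 cases in the authors' deposited table, against 49.8% of 646 that overlapped none. What part length, expression or neighbours have in the direction was not tested.

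Peaks as long as most of their transcript's genomic span nearly all fell, as did long peaks in general. The span includes introns, and a peak's length includes any bases upstream of the start. Of 126 compared peaks with a length of 50% or more of the span, 117 were called in the authors' deposited table. Of these, 111 were lower (94.9%, 89.2 to 98.1), and the median length of the 126 was 1536 bases. At 90% or more, 54 of 58 were called and all 54 were lower. Without these broad peaks, the 1022 called peaks under 50% of the span were lower in 49.3% of cases (46.2 to 52.4) in the authors' deposited table. Among all 5' UTR peaks of 1 block over 1200 bases, at any share of the span, 97.3% were called and 95.0% of these were lower. Whether the share of the span matters apart from length was not tested.

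Several genes named above had long peaks that fell. HEXIM1 had a log2 fold change of -0.61 in the authors' deposited table (log10 FDR -434, 59.5% of the span) and PURB -0.72 (log10 FDR -61.6, 30.5%). CEBPA stood at -0.77 in the authors' deposited table (log10 FDR -13.2, 60.9% of the span), at 8.93 ± 0.587 FPKM (SD, n = 3) in input. CEBPB stood at -0.38 in the authors' deposited table (log10 FDR -7.64), with 5.46, 5.21 and 6.78 FPKM. ZNF830, a zinc finger protein of splicing complexes, was at -0.56 over 1522 bases in the authors' deposited table (log10 FDR -52.7, 68.0% of the span). In contrast, RPL36, a ribosomal protein gene of 354, 380 and 382 FPKM, had a peak with 84.6% of the length of its transcript's span. That peak rose by 0.32 in the authors' deposited table (log10 FDR -95.3).

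The largest rises came mostly with weak FDR values, and 8 of the 10 stood on peaks of 300 bases or less. Among genes of at least 1 FPKM the 10 highest called peaks of the authors' deposited table were those of XAGE1A, UPP1, ELOVL5, ATOH7, CTU2, ACSS1, RPL36, CYB561D2, MOGS and SLFNL1, with log2 fold changes of 4.18 to 3.06. CYB561D2, a transmembrane reductase, had 3.13 with a log10 FDR of -29.0 in the authors' deposited table (267 bases on chromosome 3, 50351112 to 50351378). Another gene on the same strand overlaps this CYB561D2 peak. XAGE1A, a cancer/testis antigen with near-identical copies, had 4.18 with -8.19 in the authors' deposited table. The other 8 had log10 FDR values from -2.76 to -1.34 in the authors' deposited table. MOGS, the first glucosidase of N-glycan processing, had 3.09 over 119 bases in the authors' deposited table and, beside it, 0.97 over 927 bases and -0.31 over 688 bases further along. ACSS1 had 3.29 over 750 bases in the authors' deposited table, and the peak of RPL36 at 3.26 (chromosome 19, 5680993 to 5681232) overlaps HSD11B1L. At 7 of these 10 genes another called peak of any region went the opposite way, and the exceptions were SLFNL1, UPP1 and XAGE1A.

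The 10 lowest called peaks of the authors' deposited table were those of PHLDA1, PIAS1, C12orf65, ZNF529, TIMM17B, CTBP1-DT, PSME4, ELK4, FYCO1 and CAPN1, with log2 fold changes of -4.17 to -2.24. They too were short, from 61 to 390 bases, and their log10 FDR lay between -3.28 and -1.31 in the authors' deposited table. PIAS1, a SUMO ligase, was at -3.13 over 61 bases in the authors' deposited table, 1542 bases downstream of the start, with 20.7, 21.2 and 19.9 FPKM. PSME4, a proteasome activator, had a pair of overlapping peaks, at -2.44 and -0.70 in the authors' deposited table. TIMM17B, a subunit of the mitochondrial inner membrane translocase, likewise had -2.63 and -2.08 in the authors' deposited table, at a site where PQBP1 overlaps. The peaks of PHLDA1, PIAS1, ZNF529, ELK4, an ETS factor, and FYCO1, an adaptor of autophagosome transport, overlapped no peak listed for the combined treatment. In 8 of these 10 genes every called peak of any region was lower, counting CTBP1-DT and PHLDA1 with a single called peak each, and the exceptions were PIAS1 and CAPN1, a calpain protease.

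Few genes of the m6A machinery and the HIF pathway had a compared peak. RBM15 was the 1 machinery gene with one, and it fell by 0.84 over 3952 bases in the authors' deposited table (log10 FDR -151). All 4 HIF pathway and target genes with a compared peak were called in the authors' deposited table, 3 higher and 1 lower, against 60.3% called in the class and 54.0% of these lower. Over all regions, 35 peaks of this list were called in the authors' deposited table, 21 lower and 14 higher. HK2, the hexokinase that starts glycolysis, had 49.1, 41.8 and 43.5 FPKM in input, and its 150-base peak at the transcript start rose by 0.58 in the authors' deposited table (log10 FDR -6.68). PFKFB3, which makes the activator of phosphofructokinase, had 17.4, 14.8 and 16.5 FPKM, and its 301-base peak rose by 0.75 (log10 FDR -5.24) in the authors' deposited table. DDIT4, the hypoxia-induced inhibitor of mTORC1, had 86.6, 79.2 and 83.1 FPKM, and its 90-base peak fell by 0.71 (log10 FDR -20.8) in the authors' deposited table, at a site with no listed peak of the combined treatment. PGK1, a glycolytic kinase, was at 1.53 in the authors' deposited table (log10 FDR -1.73), on a stretch that overlaps ATP7A and lies 51986 bases from the start of the transcript in its row. The 4 values had a median of 0.67, beside -0.43 over all tested peaks. These 4 peaks were short, from 90 to 301 bases. By length, 5' UTR peaks of 1 block had medians of 0.75 at 150 bases or less, 0.54 from 151 to 300 and -0.29 from 301 to 600.

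Stress-response genes, several of them known for regulation through their leaders, had calls in both directions. Of 7 compared peaks of genes with upstream reading frames or stress roles, 6 were called in the authors' deposited table, 4 higher and 2 lower (median 0.44). In the class 60.3% were called, and 54.0% of these were lower. Over all regions the list had 12 higher and 13 lower called peaks, against 66.4% lower among all called peaks of that table. ATF4, the transcription factor of the integrated stress response whose translation is set by upstream reading frames, had 91.8, 90.2 and 92.8 FPKM and a listed fold enrichment of 6.38. Its 892-base peak from the transcript start (chromosome 22, 39519672 to 39520563) rose by 1.36 in the authors' deposited table (log10 FDR -22.1). HSPA1A and HSPA1B, the inducible Hsp70 genes, rose by 0.74 over 327 bases and by 0.44 over 420 bases in the authors' deposited table (log10 FDR -29.2 and -27.6). Their input levels were 147, 131 and 157 FPKM for HSPA1A and 175, 152 and 183 FPKM for HSPA1B, and reads of these near-identical copies may be shared. The lower pair was CEBPA and CEBPB, with the values given above.

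Immediate early genes had 11 compared peaks in 8 genes. Of these, 9 (81.8%) were called in the authors' deposited table, 5 lower and 4 higher (median -0.46), against 60.3% called in the class. Over all regions, 33 peaks of this list were called in the authors' deposited table, 25 lower and 8 higher. DUSP1, the phosphatase that ends MAP kinase signalling, had 12.0, 10.5 and 13.1 FPKM, and its 415-base peak fell by 0.95 (log10 FDR -8.75) in the authors' deposited table. IER5 fell by 0.78 (log10 FDR -298), JUND by 0.46 (log10 FDR -48.0) and JUN, the AP-1 subunit, by 0.24 (log10 FDR -18.1) in the authors' deposited table. MYC, the growth-promoting transcription factor, had 5.74, 4.63 and 5.92 FPKM, and 2 of its 3 compared peaks rose, by 0.80 at the transcript start (log10 FDR -5.76) and by 0.19 further downstream (log10 FDR -1.36) in the authors' deposited table. Its other peak, with -1.32 in the authors' deposited table, was not called (log10 FDR -0.39). The antisense gene CASC11 overlaps all 3.

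Blood cell and inflammatory regulators had few compared peaks. Of 5 compared peaks of haematopoietic transcription factors (median 0.31), 2 were called in the authors' deposited table, against 60.3% called in the class. Both were lower, CEBPA and RUNX1, the core factor of definitive haematopoiesis, which fell by 0.19 over 1228 bases (log10 FDR -6.18). Another RUNX1 peak, with 0.96 in the authors' deposited table, was not called (log10 FDR -0.59). Over all regions this list had 13 lower and 5 higher called peaks in the authors' deposited table. In TNF and NF-kB signalling 3 of 5 compared peaks (60%) were called in the authors' deposited table (median 0.24), close to the share in the class. Over all regions that list had 18 lower and 6 higher called peaks in the authors' deposited table. The inhibitors NFKBIE and NFKBIA, which hold NF-kB in the cytoplasm, rose by 0.72 (log10 FDR -1.78) and 0.24 (log10 FDR -1.56), and BIRC3, an inhibitor of apoptosis, fell by 0.58 (log10 FDR -3.54) in the authors' deposited table. Of 2 compared peaks of p53 target genes, that of TNFRSF10B, a death receptor, rose by 0.37 in the authors' deposited table (log10 FDR -1.89). Over all regions, called peaks of p53 target genes were lower in 12 cases and higher in 6 in the authors' deposited table. For comparison with the all-region counts of these lists, 66.4% of all called peaks of that table were lower.

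The called 5' UTR peaks of 1 block in cell cycle genes were all higher and all short. Of 6 compared peaks, 4 (66.7%) were called in the authors' deposited table (median 0.60), against 60.3% called in the class. Each was of 300 bases or less, a length at which 22.7% of called 5' UTR peaks of 1 block were lower. Over all regions this list had 15 lower and 11 higher called peaks in the authors' deposited table, against 66.4% lower among all called peaks. CDK2, a kinase of S phase entry, had 18.1, 20.7 and 18.3 FPKM and overlapping peaks at 1.36 and 1.15 in the authors' deposited table (log10 FDR -9.16 and -5.18), where PMEL overlaps. RB1, the retinoblastoma tumour suppressor, rose by 0.61 (log10 FDR -1.42) and CCND1, cyclin D1, by 0.59 (log10 FDR -1.40) in the authors' deposited table. Chromatin regulators had 4 called of 5 compared peaks in the authors' deposited table, 3 lower and 1 higher (median -0.84). In the class 60.3% were called, and 54.0% of these were lower. Over all regions that list had 48 lower and 22 higher called peaks in the authors' deposited table, close to the 66.4% lower among all called peaks. ASXL1, a Polycomb-associated protein mutated in myeloid disease, had -0.84 at both of its peaks in the authors' deposited table (log10 FDR -2.01 and -2.09), and BRD2, a bromodomain protein of 91.9, 90.8 and 92.8 FPKM, fell by 0.73 (log10 FDR -30.7) at a site with no listed peak. KMT2D, a histone H3 lysine 4 methyltransferase, rose by 0.43 over 1021 bases in the authors' deposited table (log10 FDR -2.12).

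Zinc finger genes named ZNF formed the largest group, with 58 compared peaks in 49 genes. Of these, 38 (65.5%) were called in the authors' deposited table, 27 lower and 11 higher (median -0.50), against 60.3% called in the class and 68.9% in the whole table. Peaks of these genes in any region were lower in 557 of 618 called cases in the authors' deposited table, against 66.4% of all called peaks. Among called peaks over 300 bases 25 were lower and 5 higher, and among shorter ones 2 were lower and 6 higher. ZNF322 fell by 1.49 over 2306 bases (log10 FDR -76.5), ZNF140 by 1.05 over 1852 bases (log10 FDR -80.3) and ZNF623 by 0.74 over 2483 bases (log10 FDR -113) in the authors' deposited table. They began 21083, 25706 and 13850 bases from the start of the transcript in their row in the same order. Of the TOP list, RACK1 rose by 0.69 in the authors' deposited table (log10 FDR -1.61), and RPL28, at 1.57, was not called (log10 FDR -1.06). Over all regions the TOP list had 4 lower and 14 higher called peaks in the authors' deposited table.

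**Figure D5:**
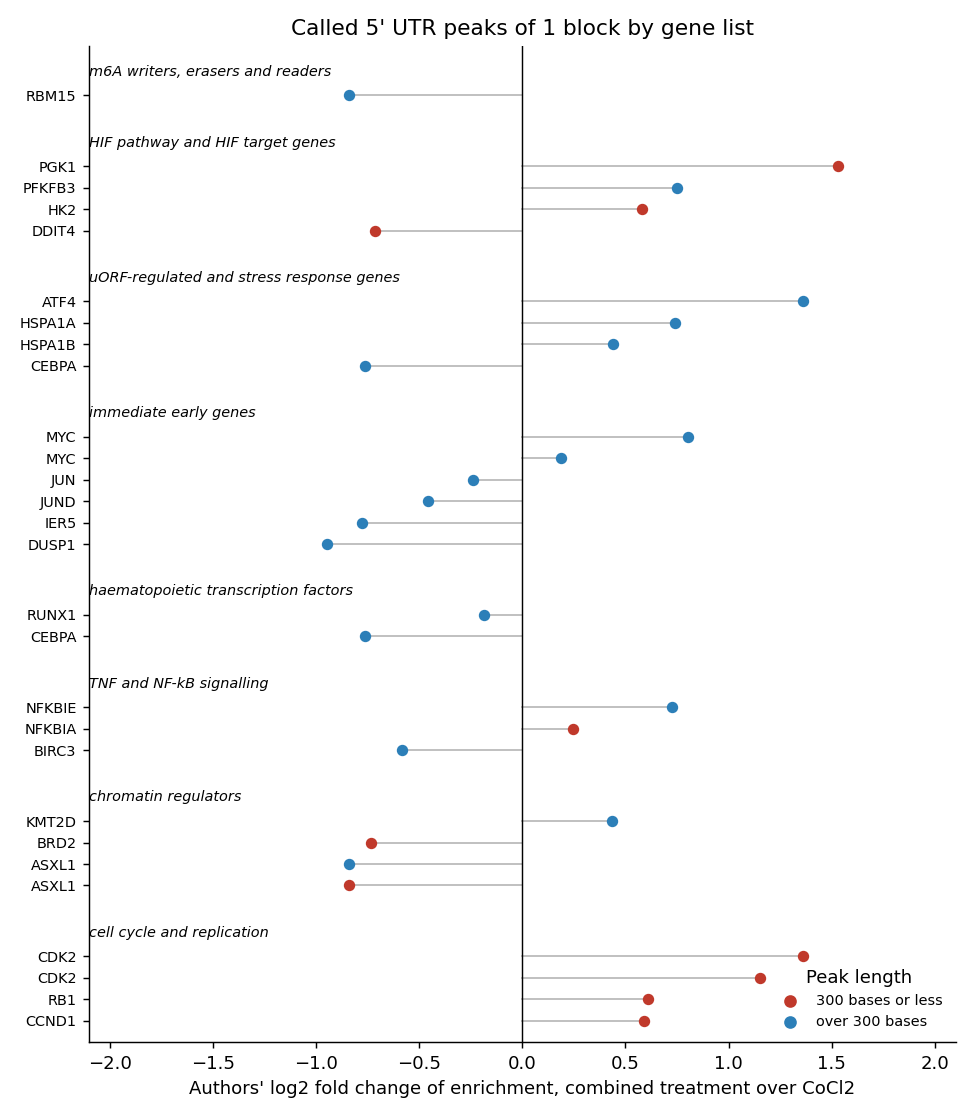
Authors' log2 fold change of enrichment, combined treatment over CoCl2, for called 5' UTR peaks of 1 block of named genes in 8 gene lists, 1 point per peak; red points are peaks of 300 bases or less and blue points longer ones. The 4 cell cycle peaks lie between 0.59 and 1.36 and are all short. Longer peaks lie on both sides, with RBM15, CEBPA, IER5 and DUSP1 between -0.95 and -0.77 and ATF4, HSPA1A, HSPA1B and KMT2D between 0.43 and 1.36. CEBPA belongs to both of the lists that show it.

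Within genes, 5' UTR peaks of 1 block stood slightly above 3' UTR peaks of 1 block in their change. Both classes had a compared peak in 539 genes. The median difference in log2 fold change, 5' UTR minus 3' UTR, was 0.13 in the authors' deposited table (interval 0.04 to 0.29). The 5' UTR peak was above in 301 genes and below in 238. The peaks compared were those of lowest authors' p, and the 5' UTR peaks were shorter, with a median of 299 bases against 450. Of 287 genes with both called, 102 had both lower and 59 both higher in the authors' deposited table. In 82 a higher 5' UTR peak stood with a lower 3' UTR peak, and 44 had the reverse. Against spliced 5' UTR peaks of the same gene the median difference was 0.05 over 385 genes of the authors' deposited table, and among 223 genes with both called 34 moved apart. Of 96 genes with at least 2 called 5' UTR peaks of 1 block, 52 had all lower, 35 all higher and 9 both directions. Overlapping peaks of a gene, as in CDK2, PSME4 and TIMM17B, were counted separately here, although they can share reads.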

How the data were processed

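Kasumi-1 cells under the combined treatment were sampled as 3 IP and 3 input libraries, grouped by their titles. Poly(A) RNA was fragmented, pulled down with an m6A antibody and turned into paired-end libraries that mark strand, per the labels' protocols, and nothing in the labels says whether the replicates were separate cultures. The submitters' processing notes name fastp, HISAT2, HOMER and ChIPseeker with no role or version. The sources used here do not give the peak caller, the genome build or the way replicates were combined.

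The authors deposited each peak's fold enrichment as a ratio (IP over input), its p-value, and the log10 of p and FDR, read here as a score. Their second deposited list holds log2 fold changes with p-values and log10 FDR scores. From its name the change was taken to be combined treatment over CoCl2, since the labels do not state the direction. Of the 5' UTR peaks of 1 block in it, 53.6% shared at least 1 base with a listed peak at a log2 fold change under -2, and 99.2% above 2. FPKM was deposited by the authors per gene and input library. Ratios of low FPKM values showed no steps of whole reads (at most 8 of 1550 genes shared a ratio), so depth is unknown. Beside the input columns, 6 other per-sample columns were not used, and no pair of input columns was identical.

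Repeated lines with the same gene and positions (16 in the peak list, 4 in the differential list) were counted once. Length is the sum of the block sizes, position is counted from the start of the transcript in the row, and a gene counted as expressed at a mean of 1 FPKM or more. Peaks of low levels passed no filter of their own. RefSeq starts came from the promoter table of GRCh38.p14, with the first entry of each gene. Shares carry exact Clopper-Pearson 95% intervals and medians order-statistic intervals, which cover counting error only. Both were checked on simulated data. Scripts ran in Python 3.11.15 (scipy 1.17.1, pandas 2.3.3, numpy 2.4.6; figures by matplotlib 3.10.9).

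The peaks, the 11 gene lists and the rules were chosen with earlier results of these data known. Named genes were the 10 with the highest fold enrichment at 5 FPKM or more, the 10 highest and 10 lowest called log2 fold changes at 1 FPKM or more, up to 4 called genes per list by lowest p with up to 2 by enrichment, all m6A machinery genes with such a peak, and MYC, HIF1A, VEGFA, ATF4, RUNX1 and TNF where they had one. EEF1A1 is named as the remaining TOP gene with such a peak. Clone-named loci were left out. Alternatives varied the FDR and fold limits, repeated lines, expression limits, the unit of counting, overlap with listed peaks, pseudocounts, input replicates, RefSeq matching and the motif.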

Additional observations from a re-analysis of the deposited data

How the results depend on the processing

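Of 38 alternatives, 24 kept their result, 10 moved it and 4 turned its direction. The median log2 fold change of 5' UTR peaks of 1 block (-0.24) came to 0.21 in genes of 1 FPKM or more, 0.35 at 1200 bases or less and -0.33 over called peaks only, so its sign is not settled. It was 0.37 for peaks with at least 50% of their length on a peak listed for the combined treatment, a filter that itself keeps peaks high in that treatment. The share lower (54.0%) was 48.3% at a 2-fold limit, with 381 called, 57.1% at an FDR under 0.01 and 59.9% weighted to the lengths of all called peaks. The weighting, the called-only median and the length limit were added after the data were seen. Median fold enrichment (3.81) was 3.20 at 5 FPKM or more and 4.24 for the highest peak per gene. The share of expressed genes with such a peak (22.5%) was 25.6% at 5 FPKM, 20.4% with listed peaks under an FDR of 0.05, and 22.4% to 22.6% with each input replicate left out. Median input of these genes (4.67 FPKM) was 5.05 at 0.1 FPKM or more and 4.64 to 4.70 with each replicate left out. GGACT in place of GGAC gave 4.85%, since the longer word is rarer. The count of called peaks (1139) was 877 (46.4%) at an FDR under 0.01 and 1139 with repeated lines kept. The share starting with A and the within-gene difference kept to their intervals under the alternatives run. No paired analysis was possible because the lists hold 1 value per peak and only the input libraries have values per replicate. The depth of the libraries is unknown, so which short or weak peaks it limits was not tested.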
